A study of Mus musculus domesticus and Mus musculus domesticus x Mus musculus castaneus and Mus musculus castaneus with 27 samples.

Results

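Bone morphogenetic protein (BMP) pathway genes were described in mouse pluripotent stem cells (PSC) and in motor neurons (MN) differentiated from such cells, across 5 genotypes. The genes were chosen by symbol: the ligands Bmp2, Bmp4 and Bmp7, the receptors Bmpr1a, Bmpr1b and Bmpr2, the antagonist Nog and the target genes Id1, Id2 and Id3. Of these 10 symbols, 8 were matched to the 27071 gene identifiers of the count table, and Bmp2 and Id2 were not analysed here. Among the genotypes were C57BL/6 (BL6; C57BL/6J in the design text) and 129S6/SvEv, both Mus musculus domesticus, and CAST/EiJ (CAST), which is Mus musculus castaneus. The other two, written CAS129 and 129CAS, were F1 hybrids of CAST and 129S6/SvEv. Of the 20 libraries, 6 were PSC (2 each of BL6, CAST and CAS129) and 14 were MN, with 7 of BL6, 3 of CAS129, 2 of 129S6/SvEv and 1 each of CAST and 129CAS. PSC were undifferentiated cells able to form all tissues, and MN were cultures of the spinal neurons that drive muscle. The labels name no transgene, treatment or time point, and say neither which strain was the mother of a hybrid nor how many clones a line represents. They do not call the replicates separate cultures either, so each p-value reflects only how much these samples varied, which may be technical.

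BMPs are secreted ligands of the TGF-beta superfamily that bring together type I receptors, such as Bmpr1a and Bmpr1b, and type II receptors, such as Bmpr2. The type II receptor phosphorylates the type I receptor, which phosphorylates SMAD proteins that enter the nucleus and switch on targets including the Id genes, while noggin (Nog) binds the ligands and keeps them from the receptors. Id proteins bind E proteins and so hold back neurogenic transcription factors. In mouse stem cell culture BMP acts through Id genes to oppose neural differentiation, and in the embryonic spinal cord BMPs from the roof plate pattern the dorsal side, opposite to the ventral region where motor neurons form.

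Total counts ran from 4497912 to 13620056 per library in PSC and from 5612575 to 44572794 in MN. The labelled cell types were checked against their markers: 7 motor neuron genes summed to at most 6.03 CPM (read counts scaled to library size) in any PSC library and to at least 77.9 CPM in any MN library. The MN libraries also held 10 mesenchyme and fibroblast genes at a summed 6528 to 34124 CPM, against 254 to 3096 CPM in PSC. CAS129 MN stood apart from the other MN groups: 7 pluripotency genes summed to 380.3 to 975 CPM there and to 43.7 to 115 CPM in the other MN libraries, and Pou5f1, a transcription factor of pluripotent cells, was at 0 counts in CAST MN and 129CAS MN. Neuron genes summed to 436 to 577 CPM in CAS129 MN, below the 1127 to 3588 CPM of the other MN libraries, and neural progenitor genes to 931 to 1018 CPM, above the 216 to 595 CPM of the others. The marker sums include genes at 0 counts in hybrids. Map2 (neuron), Lhx3 (motor neuron) and Olig2 (neural progenitor) were at 0 counts in CAS129 MN and 129CAS MN. Hes5 (neural progenitor) was at 0 counts in CAS129 MN. The part of these zeros in the sums was not tested. The part of these mixtures in the results below was not tested, and in bulk libraries fewer cells of a type and less RNA per cell cannot be told apart.

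The hybrid MN libraries also had few or no counts for many genes that both parental strains expressed. Of 9010 genes at 10 CPM or higher in every CAST and 129S6/SvEv MN library, 563 (6.25%) were over 8-fold lower in every hybrid MN library than in the lowest parental one. Only 3 of 7991 genes (0.0375%) were over 8-fold higher in the same sense. Map2, a microtubule protein of neurons, was at 0 counts in every hybrid MN library. Whether a separate reference served for the hybrids was not given in the sources used here, and the cause was not tested. Levels are therefore listed by genotype, but these low counts also enter the tests. The CAS129 libraries are part of the pooled comparison of MN with PSC. They are also compared directly with BL6, CAST and 129S6/SvEv.

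The genes lay on 6 chromosomes of GRCm38. Bmp4 (ENSMUSG00000021835) lay on chromosome 14 from 46383520 to 46390669 and Bmpr1a (ENSMUSG00000021796) on the same chromosome from 34410734 to 34503341. Bmp7 (ENSMUSG00000008999) and Id1 (ENSMUSG00000042745) lay on chromosome 2, from 172868012 to 172940321 and from 152736251 to 152737410. Bmpr1b (ENSMUSG00000052430) lay on chromosome 3 from 141837136 to 142169425, Bmpr2 (ENSMUSG00000067336) on chromosome 1 from 59763400 to 59879014, Nog (ENSMUSG00000048616) on chromosome 11 from 89300638 to 89302332 and Id3 (ENSMUSG00000007872) on chromosome 4 from 136143497 to 136145755. These are whole annotated genes. An exon of Bmp4 overlapped an exon of Gm15217 on the opposite strand, whose level was at most 3.76 CPM in any library, and a Bmpr1a exon overlapped the antisense gene Gm17110. How strand was treated in counting was not given in the sources used here, and these overlaps could not be resolved for Bmp4 and Bmpr1a.

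Id1 and Id3 are paralogs, both lower in every hybrid MN library than in either parental strain, and their most alike coding stretch is shown to let their sequences be compared. Both stretches run 120 bases within 1 exon, on the plus strand of GRCm38, from GENCODE M21 transcripts. Capitals mark the 85 bases (70.8%) that are identical in the 2 genes, and the longest identical run anywhere in their coding sequences was 11 bases. The Id1 stretch lies at chr2:152736518-152736637 and covers coding bases 178 to 297, and the Id3 stretch lies at chr4:136144002-136144121 and covers coding bases 124 to 243.
Id1: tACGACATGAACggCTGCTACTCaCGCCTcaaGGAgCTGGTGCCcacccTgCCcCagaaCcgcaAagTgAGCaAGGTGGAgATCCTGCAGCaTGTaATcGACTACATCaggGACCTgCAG
Id3: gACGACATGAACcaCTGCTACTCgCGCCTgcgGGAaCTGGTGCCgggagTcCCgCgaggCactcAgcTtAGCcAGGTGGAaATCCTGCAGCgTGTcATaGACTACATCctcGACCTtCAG

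Across BL6, CAST and CAS129, receptors, the antagonist and the Id genes were higher in MN than in PSC, and Bmp7 was lower. In this comparison 6 of the 8 genes rose and 1 fell, while 74.6% of all genes tested were called, 36.1% higher and 38.5% lower. Within single genotypes, 8 of 8 were called in BL6 (6 higher, 2 lower) beside 70.2% of all genes. In CAST, with its single MN library, 4 of 8 were called, all higher, beside 56% of all genes, and in CAS129 8 of 8 (7 higher, 1 lower) beside 54.4%. The CAST and CAS129 changes rest on their own PSC and MN libraries, but all 3 changes share 1 estimate of the spread. Without the 5 CAS129 libraries 7 of the 8 genes were called in the pooled comparison, as with them.

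The size of the change itself differed between genotypes for some genes. Tested directly, the MN-to-PSC difference was not the same in CAS129 as in BL6 for 4 of the 8 genes (Bmp4, Bmpr1b and Id1 more positive, Bmp7 more negative), beside 18.2% of all genes. The median of this difference over all genes was 0.26 on the log2 scale with TMM scaling and 0.00 with the scaling of DESeq2. Between CAST and BL6 it differed for 0 of 8 by edgeR's quasi-likelihood test, beside 7.28% of all genes, with 2 at an unadjusted p under 0.05 (Bmp4 and Bmp7) and 0 called by DESeq2. Both of these differences share the BL6 libraries.

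**Figure D1:**
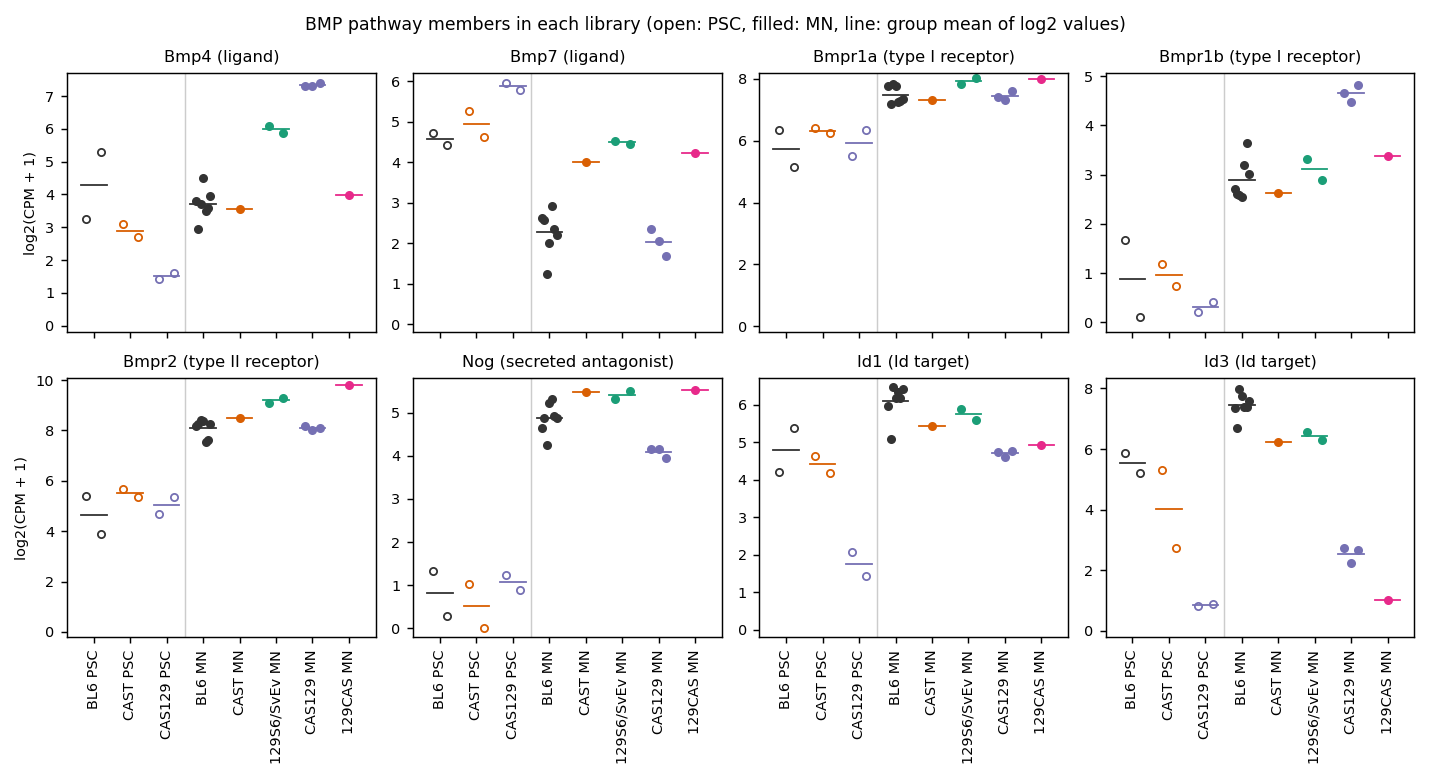
Level of each gene in each library as log2(CPM + 1) on the vertical axis, by group on the horizontal axis; open points are PSC, filled points are MN and a short line is the mean of a group's log2 values. Bmpr1a, Bmpr1b, Bmpr2 and Nog show no overlap between PSC and MN libraries, while Id3 drops to 1.05 to 5.73 CPM in the hybrid MN. The share of all genes without such overlap was not counted. In the pooled comparison of MN with PSC, 74.6% of all genes tested were called.

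Bmp4, a ligand that supports self-renewal of mouse stem cells and patterns the dorsal neural tube, rose from PSC to MN in CAS129. Its called fall in BL6 rested on BL6 PSC replicate 2. Its level was 8.58 and 38.4 CPM in the BL6 PSC libraries, 7.498 and 5.49 CPM in CAST PSC and 1.67 and 2.05 CPM in CAS129 PSC. In MN it ran from 6.75 to 21.7 CPM over the 7 BL6 libraries (median 12.01), and was 10.8 CPM in CAST, 66.9 and 57.9 CPM in 129S6/SvEv, 156.1, 155.6 and 167 CPM in CAS129 and 14.8 CPM in 129CAS. CAS129 MN and 129S6/SvEv MN lay above every other library, and the single 129CAS library lay within the range of BL6 MN.

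In CAS129 the rise of Bmp4 was a log2 of 6.34 (SE 0.64, 81.2-fold, adjusted p = 5.7e-07), from 1.86 ± 0.271 CPM (SD, n = 2) to 159.7 ± 6.66 CPM (SD, n = 3). In BL6 Bmp4 fell by 1.04 on the log2 scale (SE 0.38, adjusted p = 0.021), but that call rested on BL6 PSC replicate 2. Leaving that library out gave 0.39 (adjusted p = 0.4), whereas leaving out BL6 PSC replicate 1 gave -1.76. In CAST the change was 0.56 (SE 0.63, adjusted p = 0.46). The change differed between CAS129 and BL6 by a log2 of 7.38 (SE 0.73, adjusted p = 8.1e-06). Over the 3 genotypes together Bmp4 was not called (0.41, SE 0.77, adjusted p = 0.64). That pooled value was -0.65 (adjusted p = 0.17) without the CAS129 libraries and 1.97 (adjusted p = 0.031) without BL6 PSC replicate 2.

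Markers of other cell types also differed in CAS129 MN, and their part in its levels of Bmp4, Bmpr1b, Id1 and Id3 was not tested. Pluripotency and neural progenitor genes were higher and neuron genes lower there than in any other MN library, as given above. Mesenchyme and fibroblast genes summed to 22624 to 26186 CPM in CAS129 MN and to 15042 to 34124 CPM in BL6 MN. Roof plate and dorsal neural tube genes, 6 of 7 measured, summed to 3.27 to 4.40 CPM in CAS129 MN and to 3.58 to 12.4 CPM in BL6 MN.

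Bmp7, a ligand of the developing nervous system and kidney, was the 1 gene that fell in the pooled comparison. It stood at 25.2 and 20.4 CPM in BL6 PSC, 37.4 and 23.6 CPM in CAST PSC and 61.2 and 53.8 CPM in CAS129 PSC. Its range over the BL6 MN libraries was 1.35 to 6.55 CPM (median 4.09), with 4.09, 3.18 and 2.20 CPM in CAS129 MN. CAST MN, 129S6/SvEv MN and 129CAS MN were higher, at 15.0 CPM, 21.9 and 20.97 CPM, and 17.6 CPM. PSC and MN therefore did not overlap within BL6, CAST or CAS129, while the 129S6/SvEv MN libraries reached the lowest PSC values.

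The pooled fall of Bmp7 was a log2 of -2.97 (SE 0.38, 7.82-fold, adjusted p = 1.5e-06). By genotype it was -2.57 in BL6 (SE 0.32, adjusted p = 1.9e-06), -4.25 in CAS129 (SE 0.44, adjusted p = 6.8e-07) and -1.19 in CAST (SE 0.56, adjusted p = 0.079; called without BL6 MN replicate 3, at -1.30 and adjusted p = 0.017). The difference between CAS129 and BL6 was -1.68 (SE 0.57, adjusted p = 0.048). That call ended in 14 of the 20 fits that left out 1 library each (adjusted p 0.05 to 0.11), and held only without BL6 MN replicate 3, 4 or 7, CAST MN, CAS129 MN replicate 1 or 129CAS MN.

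**Figure D2:**
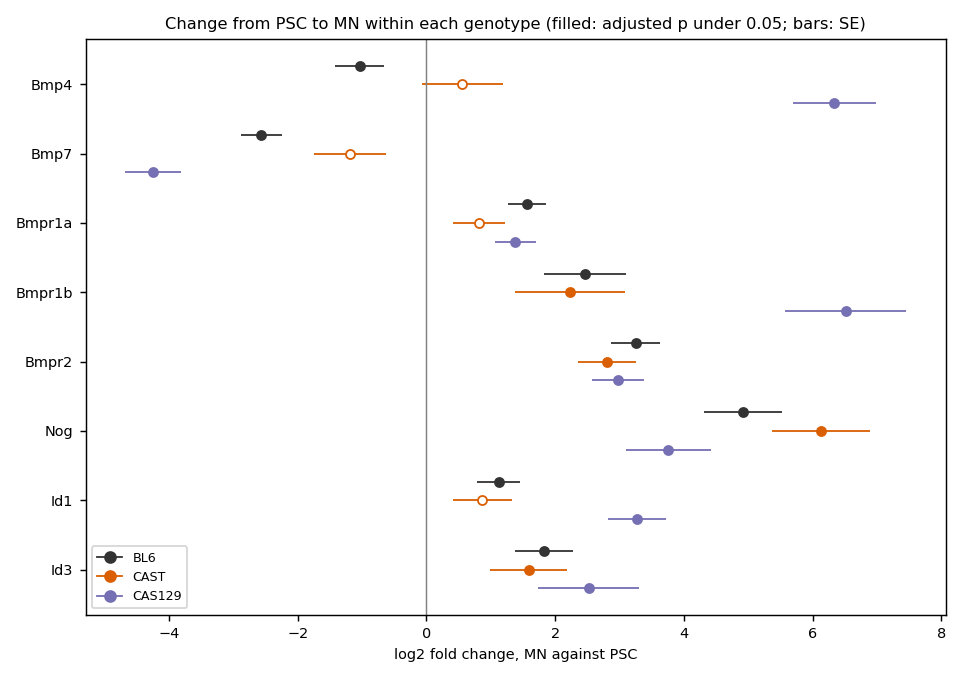
Log2 fold change of MN against PSC (horizontal axis) for each gene (vertical axis) in BL6, CAST and CAS129; bars are the standard error and filled points passed an adjusted p of 0.05. Bmp4 lies at -1.04 in BL6 and 6.34 in CAS129, while Bmpr2 lies between 2.81 and 3.25 in all 3 genotypes. The BL6 value of Bmp4 was 0.39 without BL6 PSC replicate 2.

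The receptors were higher in MN than in PSC in each of BL6, CAST and CAS129, with a call for each except Bmpr1a in CAST. Bmpr1a, a type I receptor with broad expression, stood at 79.8 and 34.7 CPM in BL6 PSC, 84.3 and 74.4 CPM in CAST PSC and 44.4 and 79.9 CPM in CAS129 PSC. MN levels ran from 144.3 to 226 CPM in BL6 (median 160.7), and was 158 CPM in CAST, 226 and 262 CPM in 129S6/SvEv, 170.4, 158 and 193 CPM in CAS129 and 252 CPM in 129CAS. No PSC library reached the lowest MN library. Bmpr1a rose by a log2 of 1.23 over the 3 genotypes (SE 0.21, adjusted p = 3.5e-05), by 1.56 in BL6 (SE 0.3, adjusted p = 0.00017) and by 1.38 in CAS129 (SE 0.32, adjusted p = 0.0016). The BL6 value was 1.02 (adjusted p = 0.009) without BL6 PSC replicate 2, and the CAS129 call ended without CAS129 PSC replicate 1 (0.84, adjusted p = 0.069). In CAST the value was 0.82 (SE 0.4, adjusted p = 0.089), and it was called without BL6 PSC replicate 1 (0.82, adjusted p = 0.042).

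Bmpr1b, a type I receptor with narrower expression, was near the detection limit in PSC. It had 30 and 1 counts in the BL6 PSC libraries (2.18 and 0.0745 CPM), 12 and 6 counts in CAST PSC (1.27 and 0.672 CPM) and 1 and 2 counts in CAS129 PSC (0.151 and 0.341 CPM). Among MN libraries it ran from 4.81 to 11.5 CPM in BL6 (median 5.57), and was 5.18 CPM in CAST, 8.98 and 6.44 CPM in 129S6/SvEv, 24.2, 21.3 and 27.3 CPM in CAS129 and 9.40 CPM in 129CAS. The 3 CAS129 MN libraries were above all others, and no PSC library reached an MN library.

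Bmpr1b rose by a log2 of 3.20 over the 3 genotypes (SE 0.62, adjusted p = 0.00017) and by 2.46 in BL6 (SE 0.64, adjusted p = 0.0025). The pooled value was 4.87 without BL6 PSC replicate 1, and the BL6 value was 6.16 without that library and 1.46 (adjusted p = 0.025) without BL6 PSC replicate 2. In CAS129 it rose by 6.52 (SE 0.94, adjusted p = 2.1e-05). With 3 counts in CAS129 PSC against 424 in CAS129 MN, the ratio of summed levels was 100.4, with an exact 95% interval of 34.1 to 488.8 that covers counting error only. In CAST the rise was 2.23 (SE 0.86, adjusted p = 0.035). That call ended in 7 of 19 fits without 1 library, at adjusted p 0.051 to 0.15: without CAST PSC replicate 1 or 2, BL6 MN replicate 7, 129S6/SvEv MN replicate 2 or any of the 3 CAS129 MN libraries. The larger change in CAS129 than in BL6 (4.05, SE 1.13, adjusted p = 0.02) fell to 0.35 (adjusted p = 1.0) without BL6 PSC replicate 1. It was also not called without CAS129 PSC replicate 1 (3.45, adjusted p = 0.11) or replicate 2 (4.58, adjusted p = 0.081).

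Bmpr2, the type II receptor that binds BMPs with either type I receptor, had the rises closest to each other in BL6, CAST and CAS129. It stood at 40.6 and 13.9 CPM in BL6 PSC, 49.5 and 40.3 CPM in CAST PSC and 24.7 and 40.1 CPM in CAS129 PSC. In MN it ran from 187 to 344 CPM in BL6 (median 303), and was 356 CPM in CAST, 544 and 633 CPM in 129S6/SvEv, 289, 260.1 and 273 CPM in CAS129 and 882 CPM in 129CAS. Every MN library was above every PSC library. The rise was a log2 of 2.94 over the 3 genotypes (SE 0.24, 7.69-fold, adjusted p = 9.3e-09), 3.25 in BL6 (SE 0.38), 2.81 in CAST (SE 0.45) and 2.98 in CAS129 (SE 0.4), with adjusted p = 1e-06, 6.3e-05 and 1e-05. The change in CAS129 minus that in BL6 was -0.27 (SE 0.47, adjusted p = 0.8). With 1 library left out in turn, that difference ran from -1.19 to 0.20 and the BL6 rise from 2.61 to 4.17.

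Compared per length, the receptors did not stand at the same level. In BL6 MN the mean was 28.7 RPKM (the CPM divided by gene length) for Bmpr1a, 15.5 RPKM for Bmpr2 and 1.13 RPKM for Bmpr1b. In BL6 PSC the mean levels were 9.02, 1.51 and 0.189 RPKM. In CAS129 MN, where Bmpr1b was highest, it still stood at 4.07 RPKM beside 27.3 RPKM for Bmpr1a. Bmpr1a thus had the highest mean of the 3 receptors on this scale in those groups.

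The lower values of Bmpr1a, Bmpr1b, Bmpr2 and Nog in BL6 PSC replicate 2 went with fewer mesenchyme and fibroblast reads. The summed level of those 10 genes was 307 CPM in BL6 PSC replicate 2 and 2230.3 CPM in replicate 1, while Bmp4 and Id1 were higher in replicate 2. The sums in CAST PSC were 3096 and 1244 CPM, and in CAS129 PSC 1361 and 254 CPM. Bmpr1a and Bmpr2 were the higher in CAS129 PSC replicate 2, which had the lower of these sums. The part of this in the results was not tested.

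Nog, the secreted antagonist made by the notochord, floor plate and roof plate in the embryo, had the largest pooled change of the 8 genes. It was at 1.53 and 0.223 CPM in BL6 PSC, 1.06 CPM and 0 counts in CAST PSC, and 1.36 and 0.854 CPM in CAS129 PSC. MN levels ran from 18.1 to 38.8 CPM in BL6 (median 28.3), and was 43.2 CPM in CAST, 39.0 and 44.0 CPM in 129S6/SvEv, 16.9, 16.7 and 14.5 CPM in CAS129 and 45.0 CPM in 129CAS. No PSC library reached the lowest MN library, and CAS129 MN was the lowest of the MN groups.

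Nog rose by a log2 of 4.70 over the 3 genotypes (SE 0.49, 25.9-fold, adjusted p = 1.7e-07). By genotype the rise was 4.92 in BL6 (SE 0.61, adjusted p = 1.8e-06), 6.13 in CAST (SE 0.76, adjusted p = 4.8e-06) and 3.76 in CAS129 (SE 0.66, adjusted p = 0.00013). The CAST value depended on CAST PSC replicate 1. Without it the remaining CAST PSC library held 0 counts, the fitted value was 12.04, and against a floor of 3 counts (0.336 CPM) CAST MN was at least 128-fold higher. Tested directly, the changes in CAST and in CAS129 were not called different from that in BL6 (1.21, SE 0.98, adjusted p = 0.49, and -1.16, SE 0.88, adjusted p = 0.41). Floor plate genes summed to 27.03 to 210.4 CPM in BL6 MN, 230.6 CPM in CAST MN, 634 to 778 CPM in 129S6/SvEv MN, 86.5 to 126 CPM in CAS129 MN and 72.3 CPM in 129CAS MN, and their part in the level of Nog was not tested.

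Id1, a direct SMAD target, was lowest in CAS129 PSC. It stood at 17.4 and 40.6 CPM in BL6 PSC, 23.9 and 17.3 CPM in CAST PSC and 3.18 and 1.71 CPM in CAS129 PSC. Among MN libraries it ran from 33.0 to 87.1 CPM in BL6 (median 71.8), and was 42.4 CPM in CAST, 58.7 and 47.2 CPM in 129S6/SvEv, 25.7, 23.1 and 26.4 CPM in CAS129 and 29.2 CPM in 129CAS. The hybrid MN libraries were below all other MN libraries, and PSC overlapped MN in BL6 but not in CAST or CAS129.

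Id1 rose by a log2 of 1.52 over the 3 genotypes (SE 0.33, adjusted p = 0.00051) and by 3.27 in CAS129 (SE 0.45, adjusted p = 1.4e-05). The pooled rise was 0.97 (adjusted p = 0.011) without the CAS129 libraries. In BL6 the rise was 1.12 (SE 0.33, adjusted p = 0.0058), and the call ended without BL6 PSC replicate 1 (0.61, adjusted p = 0.14). That BL6 value was 1.83 (adjusted p = 0.0014) without BL6 PSC replicate 2. In CAST it was 0.87 (SE 0.46, adjusted p = 0.12). The change was larger in CAS129 than in BL6 by 2.15 (SE 0.53, adjusted p = 0.01). This did not hold when BL6 PSC replicate 2 was left out (1.24, adjusted p = 0.15), nor when CAS129 PSC replicate 2 was (1.64, adjusted p = 0.13).

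Id3, also a direct SMAD target, was the gene of the set that was lowest in hybrid cells relative to the strains. It stood at 57.1 and 35.9 CPM in BL6 PSC, 39.0 and 5.71 CPM in CAST PSC and 0.757 and 0.854 CPM (5 counts each) in CAS129 PSC. In MN it ran from 103 to 252 CPM in BL6 (median 168), and was 74.7 CPM in CAST, 93.0 and 77.7 CPM in 129S6/SvEv, 5.73, 3.68 and 5.32 CPM in CAS129 and 1.05 CPM in 129CAS. The order of the MN groups was BL6, 129S6/SvEv, CAST, CAS129 and 129CAS, with no overlap between neighbours. The 2 CAST PSC libraries lay far apart, and CAST PSC overlapped BL6 PSC.

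Id3 rose from PSC to MN by a log2 of 1.79 over the 3 genotypes (SE 0.34, adjusted p = 0.00012), and by 1.83 in BL6 (SE 0.45, adjusted p = 0.0017). Without the genotype term the pooled value was 2.18 and was not called (adjusted p = 0.061). In CAS129 Id3 rose from its low level by 2.52 (SE 0.78, adjusted p = 0.012), but not past the threshold without CAS129 PSC replicate 1 (2.24, adjusted p = 0.11) or replicate 2 (2.40, adjusted p = 0.088). In CAST the rise of 1.59 (SE 0.6, adjusted p = 0.032) was 3.48 without CAST PSC replicate 1 and 0.80 (adjusted p = 0.13) without replicate 2. That call ended in 10 of 19 fits without 1 library, at adjusted p 0.051 to 0.13: besides CAST PSC replicate 2, these left out BL6 PSC replicate 2, CAS129 PSC replicate 1 or 2, BL6 MN replicate 4 or 7, 129S6/SvEv MN replicate 2 or any of the 3 CAS129 MN libraries.

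Compared within PSC, genotypes differed most in CAS129. CAST PSC and BL6 PSC differed in 0 of the 8 genes by edgeR's quasi-likelihood test, beside 10.5% of all genes, with 1 gene (Bmp4) at an unadjusted p under 0.05 and 0 called by DESeq2. CAS129 PSC differed from BL6 PSC in 4 of 8, beside 25.8% of all genes: Bmp7 was higher by a log2 of 1.48 (SE 0.32), and Bmp4, Id1 and Id3 were at -3.54 (SE 0.77), -3.45 (SE 0.57) and -5.68 (SE 0.94). Adjusted p was 0.011 for both ligands and 0.0029 for both Id genes. Against CAST PSC, 2 of 8 were called, Id1 (-3.05, SE 0.56, adjusted p = 0.0071) and Id3 (-4.74, SE 0.92, adjusted p = 0.0094), beside 14% of all genes. These comparisons share libraries.

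Some of these PSC calls rested on 1 library. Against BL6, the Bmp4 call ended without CAS129 PSC replicate 1 (-3.33, adjusted p = 0.074), and its value was -2.05 (adjusted p = 0.048) without BL6 PSC replicate 2. The Bmp7 call ended without CAS129 PSC replicate 1 (1.44, adjusted p = 0.053). Against CAST, the Id1 call ended without CAS129 PSC replicate 2 (-2.73, adjusted p = 0.055) and the Id3 call without CAS129 PSC replicate 1 (-4.56, adjusted p = 0.087) or replicate 2 (-4.89, adjusted p = 0.054). That Id3 value was -2.84 (adjusted p = 0.025) without CAST PSC replicate 1, and Bmp4, at -1.78 (adjusted p = 0.17), was called without BL6 PSC replicate 1 (-1.78, adjusted p = 0.029).

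Between the strains in MN, both ligands were higher in 129S6/SvEv than in BL6 and Id3 was lower. In this comparison 4 of 8 genes were called, beside 36.4% of all genes. Bmp4 was higher in 129S6/SvEv MN by a log2 of 2.27 (SE 0.25, adjusted p = 1.6e-05), Bmp7 by 2.34 (SE 0.35, adjusted p = 0.00022) and Bmpr2 by 1.04 (SE 0.2, adjusted p = 0.0013). Id3 was at a log2 of -1.10 (SE 0.26, adjusted p = 0.0045), but was not called without 129S6/SvEv MN replicate 2 (-0.96, adjusted p = 0.082). CAST MN, a single library assumed to vary like the other groups, differed from BL6 MN in 2 of 8, beside 12.3% of all genes. Bmp7 was higher by 1.82 on the log2 scale (SE 0.47, adjusted p = 0.023) and Id3 was at -1.30 (SE 0.36, adjusted p = 0.031). Id1 was not called in 129S6/SvEv MN (-0.43, SE 0.26, adjusted p = 0.23) or CAST MN (-0.75, SE 0.37, adjusted p = 0.2). Cell makeup also differed: epithelium and endoderm genes summed to 952 to 1430 CPM in 129S6/SvEv MN, 115 to 439 CPM in BL6 MN and 197 CPM in CAST MN. Mesenchyme and fibroblast genes summed to 6528 to 10604 CPM in 129S6/SvEv MN and 9582 CPM in CAST MN, below all BL6 MN libraries, and their part in these differences was not tested. Without BL6 MN replicate 2, which had the lowest Id1 and Id3 of its group, both Id1 values were called (-0.57, adjusted p = 0.0077, and -0.85, adjusted p = 0.01). That library also stood apart in its markers, with astrocyte and oligodendrocyte genes at 329 CPM against 23.3 to 54.7 CPM in the other 6 BL6 MN libraries. It had the highest neuron sum of its group, 3588 CPM, and the lowest neural progenitor sum, 216 CPM, whose part was not tested.

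CAS129 MN differed from BL6 MN in 5 of 8 genes, beside 59.5% of all genes. Bmp4 was higher by a log2 of 3.69 (SE 0.23, 12.9-fold, adjusted p = 2e-08) and Bmpr1b by 1.88 (SE 0.26, adjusted p = 4.5e-05). Nog was at -0.82 (SE 0.22, adjusted p = 0.0056), Id1 at -1.44 (SE 0.25, adjusted p = 0.00026) and Id3 at -5.15 (SE 0.3, 35.6-fold lower, adjusted p = 8.8e-09). The 5 calls held in all 14 fits that left out 1 library. Bmpr1a and Bmpr2 were at -0.03 (SE 0.15) and 0.01 (SE 0.18), and Bmp7 at -0.34 (SE 0.39, adjusted p = 0.47).

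Against 129S6/SvEv MN, its parental laboratory strain, CAS129 MN differed in 7 of 8 genes, beside 56.7% of all genes. Bmp4 (1.42, SE 0.33, adjusted p = 0.0024) and Bmpr1b (1.72, SE 0.37, adjusted p = 0.0017) were higher in CAS129 MN. Bmp7 (-2.68, SE 0.47, adjusted p = 0.00034), Bmpr2 (-1.03, SE 0.24, adjusted p = 0.0026), Nog (-1.30, SE 0.26, adjusted p = 0.0011), Id1 (-1.01, SE 0.3, adjusted p = 0.011) and Id3 (-4.05, SE 0.31, adjusted p = 1.9e-07) were lower. Only the Id1 call ended without 1 library, 129S6/SvEv MN replicate 1 (-0.82, adjusted p = 0.086). The comparisons of CAS129 MN with BL6 MN and with 129S6/SvEv MN share the CAS129 libraries, and in both Bmp4 and Bmpr1b were the genes called higher.

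The 2 hybrids differed from each other in 6 of 8 genes, beside 30.3% of all genes, although 129CAS MN was a single library. Relative to CAS129 MN, Bmp4 was at -3.49 (SE 0.49, adjusted p = 0.00034), Bmpr1b at -1.42 (SE 0.48, adjusted p = 0.042) and Id3 at -2.27 (SE 0.48, adjusted p = 0.0043). Bmp7 was higher by a log2 of 2.41 (SE 0.54, adjusted p = 0.0057), Bmpr2 by 1.63 (SE 0.28, adjusted p = 0.0014) and Nog by 1.43 (SE 0.32, adjusted p = 0.0054). The Bmpr1b call ended in 5 of 13 fits without 1 library, at adjusted p 0.05 to 0.078: without BL6 MN replicate 7, 129S6/SvEv MN replicate 1 or any of the 3 CAS129 MN libraries. Summed motor neuron genes were 336 CPM in 129CAS MN and 81.8 to 103 CPM in CAS129 MN, and mesenchyme and fibroblast genes were 9107 CPM and 22624 to 26186 CPM. Epithelium and endoderm genes were 1315 CPM in 129CAS MN and 284 to 289.7 CPM in CAS129 MN, endothelium and blood genes 189.8 CPM and 18.2 to 25.8 CPM, and neural progenitor genes 321 CPM and 931 to 1018 CPM. Genotype, sequencing depth and these differences in cell makeup cannot be told apart with these libraries.

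**Figure D3:**
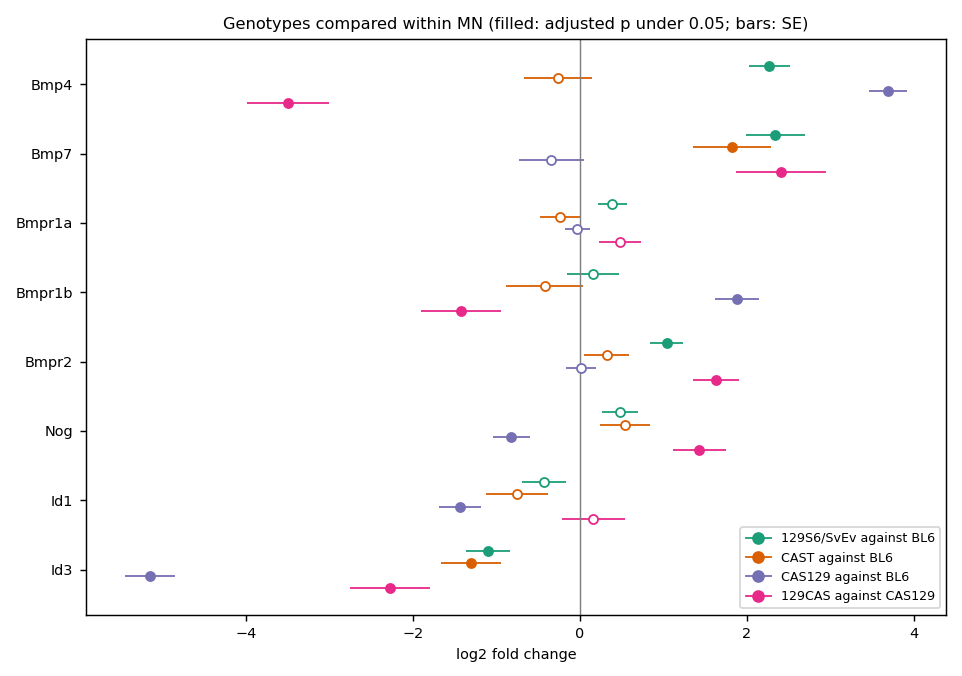
Log2 fold change (horizontal axis) of each gene (vertical axis) for 4 genotype comparisons within MN; bars are the standard error and filled points passed an adjusted p of 0.05. Id3 lies at -5.15 in CAS129 against BL6, and Bmp4, at 3.69 in that comparison, lies at -3.49 in 129CAS against CAS129.

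Set against both parental strains, Id3 and Id1 were below and Bmpr1b above the parental range in every hybrid MN library. Id3 was 1.05 to 5.73 CPM in the 4 hybrid MN libraries and 74.7 to 93.0 CPM in the 3 parental ones, so that the lowest parental value was 13.0 times the highest hybrid value. Id1 was 23.1 to 29.2 CPM against 42.4 to 58.7 CPM, and Bmpr1b 9.40 to 27.3 CPM against 5.18 to 8.98 CPM. For Bmpr1b the lowest hybrid value was only 1.05 times the highest parental value. The other 5 genes overlapped between hybrids and parents. These ranges are given as a description with no test, and the share of all genes outside the parental range was not counted.

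Id3 was 1 of the 563 genes over 8-fold lower in all hybrid MN, a set that held 43 of the 568 genes on chromosome 4 (7.57%). Of the 18 other such genes starting within 1 Mb of Id3, Eloa and Rpl11 were in it, and both were at 0 counts in all hybrid MN and CAS129 PSC libraries. Rpl11, a ribosomal protein gene, stood at 251 CPM in CAST MN, a mean of 194 CPM in 129S6/SvEv MN and 1006 CPM in CAST PSC. Unlike Rpl11, Id3 had 114 counts in the hybrid MN libraries and 10 in CAS129 PSC. Whether the level of Id3 in the hybrids has the same source as these zeros was not tested.

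**Figure D4:**
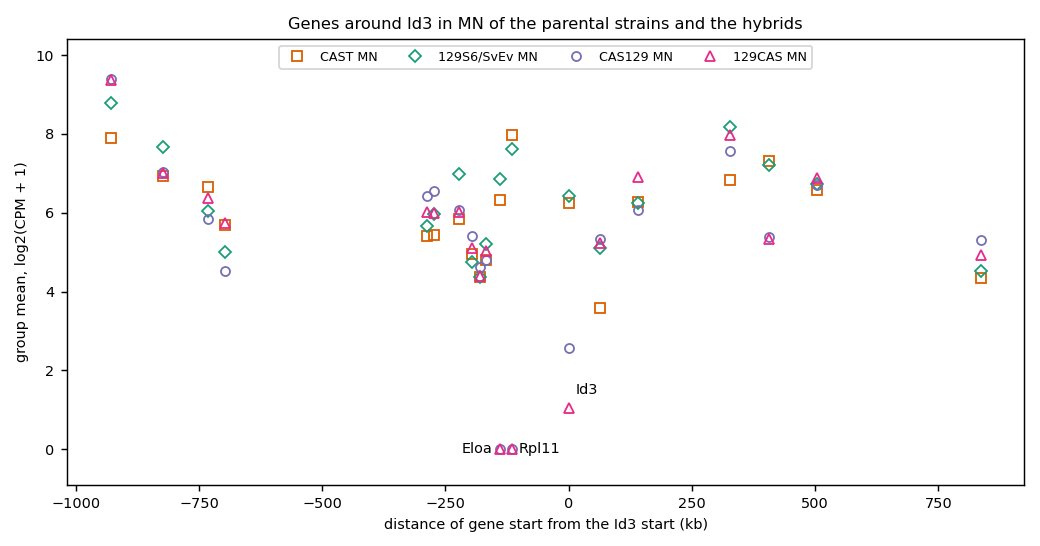
Group means in MN as log2(CPM + 1) (vertical axis) for Id3 and the 18 genes within 1 Mb that reached 10 CPM in every CAST and 129S6/SvEv MN library, by distance of their start from that of Id3 in kilobases (horizontal axis). Eloa and Rpl11 are at 0 in both hybrids, Id3 is low in both, and no other gene is over 8-fold lower in every hybrid library.

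Per length, Id3 and Id1 were the most abundant of the 8 genes in BL6 cells. In BL6 MN, Id3 had a mean of 100.8 RPKM and Id1 60.4 RPKM, beside 28.7 RPKM for Bmpr1a and 17.1 RPKM for Nog. In CAS129 MN, Bmp4 had a mean of 71.0 RPKM, above Bmpr1a (27.3 RPKM), Id1 (21.6 RPKM) and Id3 (2.74 RPKM). Bmp4 had a mean of 5.67 RPKM in BL6 MN, so the order of this ligand and the target genes was opposite in BL6 MN and CAS129 MN. In the single 129CAS MN library, Bmp4 (6.58 RPKM) lay below Id1 (25.2 RPKM) and above Id3 (0.586 RPKM). Id3 was among the genes over 8-fold lower in all hybrid MN, as given above.

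Beyond the 8 genes, 65 other genes of the pathway were listed, and 54 passed the filter on low counts in the pooled comparison of MN with PSC. Of these, 39 rose, 6 fell and 9 were not called, beside the 74.6% called of all genes, whose median log2 fold change was -0.05. The filter kept genes detected in either cell type, so a gene expressed in only 1 of them could pass through it alone.

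Among other BMP-type ligands, 6 of 10 tested rose and 2 fell (median 2.18). Gdf11, a growth factor of spinal cord development, rose by 4.14 (SE 0.32), Gdf6 by 6.07 (SE 0.68) and Bmp6 by 1.44 (SE 0.55, adjusted p = 0.024). Gdf3, a ligand of pluripotent cells, was at -7.16 (SE 0.91) and Bmp8b at -1.84 (SE 0.22). Gdf3 had 1 count over the 7 BL6 MN libraries but 19.7 ± 10.1 CPM (SD, n = 3) in CAS129 MN, where the pluripotency genes were also higher.

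Of 8 other receptors and co-receptors, 5 rose and 1 fell (median 1.86). The type I receptor Acvr1 rose by 2.76 (SE 0.15), the co-receptor Rgmb by 2.40 (SE 0.17) and the type II receptor Acvr2a by 1.95 (SE 0.27), while the type II receptor Acvr2b was at -2.89 (SE 0.26). Among SMADs and their ubiquitin ligases, 6 of 8 rose and 1 fell (median 0.92). Smad1, which carries the BMP signal, rose by 1.85 (SE 0.16), and the ligases Smurf1 and Smurf2 by 1.14 (SE 0.13) and 0.51 (SE 0.13). The inhibitory Smad7 was at -0.73 (SE 0.27, adjusted p = 0.019).

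Other secreted antagonists and modulators rose together with Nog, in 15 of 17 tested, with none called lower (median 3.69). The 3 most abundant were Fstl1, a follistatin-like protein, at 3.88 (SE 0.45), Bmp1, a protease that cleaves the antagonist chordin, at 3.93 (SE 0.36), and Crim1 at 5.06 (SE 0.41). Fstl1 stood at 1808 ± 477 CPM (SD, n = 7) in BL6 MN against 142 ± 103 CPM (SD, n = 2) in BL6 PSC. Mesenchyme and fibroblast genes rose alongside, as given above, and their part in this was not tested. The antagonist Nbl1 had 0 counts in all 5 CAS129 libraries and 3 in 129CAS MN, against 66.3 CPM in CAST MN and 77.6 ± 14.2 CPM (SD, n = 2) in 129S6/SvEv MN, so its rise in the pooled comparison (3.04, SE 0.24) rests on BL6 and CAST.

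Of 8 other target genes tested, 5 rose and 1 fell (median 1.75). Id4 rose by 2.54 (SE 0.27), Atoh8 by 4.65 (SE 0.42) and Msx2 by 2.63 (SE 0.58), while Sp5, better known as a Wnt target, was at -4.10 (SE 0.81). Of the 3 E proteins that Id proteins bind, Tcf4 and Tcf12 rose by 1.26 (SE 0.22) and 1.21 (SE 0.17), and Tcf3 was at -1.73 (SE 0.16). The adjusted p-values of the genes named in these lists without one were at most 0.0015.

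In the comparison of CAS129 MN with BL6 MN, 21 of 54 of these genes were called, 6 higher and 15 lower, a smaller share than the 59.5% of all genes. By list, 0 of 8 other receptors were called higher and 5 lower (median -1.08), and of 8 other targets 1 was higher and 4 were lower (median -0.76), beside a median of -0.08 over all genes. Id4 was at -0.77 (SE 0.25, adjusted p = 0.017), Msx2 at -1.41 (SE 0.46, adjusted p = 0.018) and Sp5 at 2.60 (SE 1.02, adjusted p = 0.043). The Sp5 value is near the detection limit, with 8 counts over 3 CAS129 MN libraries and 4 over 7 BL6 MN libraries. Sp5 passed the filter on low counts through the 129S6/SvEv MN libraries, at a mean of 3.94 CPM. In 129S6/SvEv MN against BL6 MN, 8 of 54 were higher and 12 lower, near the 36.4% called of all genes. In PSC, 2 of 44 were called in CAST and 6 of 44 in CAS129 against BL6, below the 10.5% and 25.8% of all genes.

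**Figure D5:**
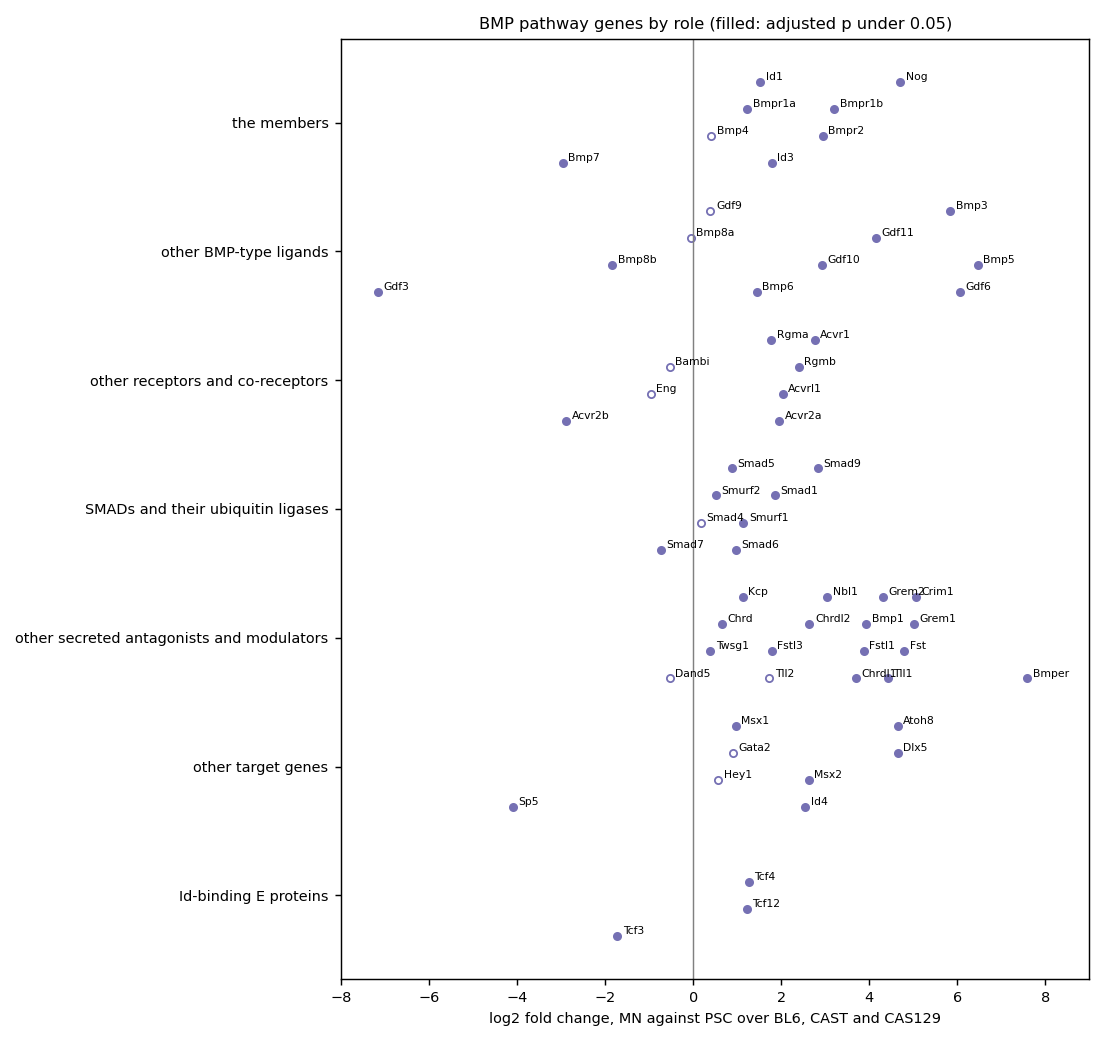
Log2 fold change of MN against PSC over BL6, CAST and CAS129 (horizontal axis) for the 8 genes described and for other pathway genes grouped by role (vertical axis); filled points passed an adjusted p of 0.05. Of the 17 secreted antagonists and modulators 15 are filled and lie above 0, while Bmp7, Gdf3, Bmp8b, Acvr2b, Smad7, Sp5 and Tcf3 are filled and lie below 0.

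The genes whose pattern over the 20 libraries was most like each of the 8, by Pearson's r of log2(CPM + 1) among 10444 genes, are given as a description, since all libraries share the division into PSC and MN. They were Pkdcc (0.92) and Arhgef10 (0.87) for Bmp4, and Malt1 (0.92) and Sema4d (0.90) for Bmp7. For the receptors they were Erlec1 and Rb1cc1 (both 0.97) for Bmpr1a, Ctla2a (0.97) and Arhgap24 (0.95) for Bmpr1b, and Dnajb14 and Sptbn1 (both 0.99) for Bmpr2. They were Tmem127 and Orai2 (both 0.99) for Nog, Elovl1 (0.96) and Maea (0.95) for Id1, and Lgals1 and Tmsb4x (both 0.97) for Id3.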

How the data were processed

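RNA sequencing was used to measure expression in 6 PSC and 14 MN libraries, grouped by the cell type and genotype in their titles. The values were whole-number read counts per gene that the authors deposited, with no normalisation. STAR and the build GRCm38 (mm10) are named for these libraries in the submitters' processing notes. What counted the reads, with which annotation and strand setting, and whether CAST, 129S6/SvEv or hybrid reads had a reference of their own, was not given in the sources used here. Among 28 columns of counts, 20 carry the name of a labelled sample and 8 stayed unused, and 7 labelled samples without such a column were not analysed here. Gene names and positions came from GENCODE M21 by identifier (27031 of 27071 matched). Per the labels' protocols, RNA of PSC and MN was extracted with different kits, so effects of the kit and of the cell type cannot be told apart.

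Tests used edgeR 4.0.16 in R 4.3.3 with TMM scaling, quasi-likelihood fits over all genes at 1 CPM or higher in at least 2 libraries of the fit, and Benjamini-Hochberg adjustment over all genes tested (2-sided, threshold 0.05). All adjusted p-values are from this test unless another tool is named. There were 14 comparisons. MN and PSC were pooled over 17 libraries with genotype as a term, genotype-specific changes and their differences came from 1 fit over 20 libraries in 8 groups, and genotypes were compared within the 6 PSC and the 14 MN libraries. Single libraries (CAST MN, 129CAS MN) were assumed to vary like the other groups. The SE was taken as the size of the log2 fold change over the root of its F statistic. Levels are CPM with TMM factors over all 20 libraries. RPKM divides them by the merged exon length and serves only to compare genes. The pooled comparison of MN with PSC was tested first on simulated counts. These had the same spread for all genes, no genotype differences and a small share of changed genes, unlike these data. The other fits were not tested in this way. No pair of replicates agreed within counting noise (lowest chi-square per degree of freedom 3.02).

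The genes described, the pathway lists and the marker lists were chosen with earlier results of these data known. The rule named all 8 measured genes in every comparison, up to 3 called genes of highest mean CPM in each direction of each pathway list, and the 2 genes most like each of the 8 in pattern. Genes named outside it (Nbl1, the neighbours of Id3, list genes compared within MN) were chosen after their values were seen. Alternatives were other scaling (DESeq2 size factors), no filter on low counts, DESeq2 1.42.0, the replicate number as a block, no genotype term, and each library left out in turn. Leaving out the CAS129 libraries was added after seeing the data.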

Additional observations from a re-analysis of the deposited data

Results flagged for a closer look

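Under the rule that takes a change from PSC to MN that differs between genotypes by a direct test, 4 genes stood out, all for CAS129 minus BL6. The difference was a log2 of 7.38 for Bmp4, -1.68 for Bmp7, 4.05 for Bmpr1b and 2.15 for Id1. The first held in all 20 fits that left out 1 library, and the other 3 did not, as given with each gene. No BL6 MN library of the 8 genes lay far enough from its group to be singled out, and the other groups were too small for that check.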

How the results depend on the processing

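Of 1602 values of the 8 genes with 1 library left out, 1508 kept their direction and their side of the threshold, as did 445 of 464 under the other settings. DESeq2 size factors in the edgeR fit changed no call. Levels scaled by totals alone were 0.913 to 1.27 times those with TMM, and 58 of 64 moved by less than their spread. The spread was the SD between replicates or, for single libraries, the margin of an exact 95% counting interval.

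The labels do not say whether replicate numbers pair these samples, and the correlation of same-numbered samples ran from -0.167 to 0.641. Between PSC groups it was 0.387 for BL6 with CAST, 0.017 for BL6 with CAS129 and 0.43 for CAST with CAS129. Whether same-numbered samples were handled together cannot be told from these values. With the replicate number as a block, the genes called fell from 2884 to 1887 for CAS129 minus BL6, from 1153 to 500 for CAST minus BL6 and from 1831 to 766 for CAST against BL6 MN, where the calls among the 8 genes went from 2 to 0 (Bmp7 1.58, Id3 -1.19). Under the block, signs turned for Id1 in CAST minus BL6 (0.13) and in 129S6/SvEv against BL6 MN (0.03), for Bmpr1b in CAST against BL6 PSC (0.37) and for Bmpr2 in CAS129 against BL6 MN (-0.15), none of them called. The block ended the calls of Bmp4 (-1.27, adjusted p = 0.051) and Id1 (0.68, adjusted p = 0.17) in BL6, of Bmpr1b in CAST (1.96, adjusted p = 0.083) and of Bmp7 in CAS129 minus BL6 (-1.50, adjusted p = 0.05), and added Bmp7 in CAST (-1.28, adjusted p = 0.024) and Nog in 129S6/SvEv against BL6 MN (0.67, adjusted p = 0.035).

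DESeq2 called 2017 genes for CAST minus BL6 and 2222 for CAST against BL6 PSC, where edgeR called 1153 and 1455. With no filter on low counts the latter was 2682, with 1 of the 8 genes called in place of 0 (Bmp4, -1.79, adjusted p = 0.0054), and Bmpr2 in CAS129 against BL6 MN was -0.01. That setting ended the Bmpr1b call of 129CAS against CAS129 MN (-1.39, adjusted p = 0.061) and added Bmp4 in CAS129 against CAST PSC (-1.81, adjusted p = 0.011), where DESeq2 added Bmp7 (0.95, adjusted p = 0.049). Without the CAS129 libraries, an alternative chosen after seeing the data, the pooled Bmp4 value was -0.65. The cause was not tested in any of these.

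With 1 library left out, the genes called and the calls among the 8 genes ran from 11190 to 11554 and 7 to 8 in the pooled comparison, 9515 to 11213 and 7 to 8 in BL6, 7478 to 9365 and 2 to 5 in CAST, and 7376 to 9090 and 6 to 8 in CAS129. They ran from 1409 to 3664 and 1 to 4 for CAS129 minus BL6, and from 570 to 2567 and 0 to 2 for CAST minus BL6. In PSC they ran from 226 to 2105 and 0 to 2 for CAST against BL6, 2132 to 3657 and 2 to 4 for CAS129 against BL6, and 1084 to 2476 and 0 to 3 for CAS129 against CAST. In MN they ran from 2800 to 6324 and 3 to 5 for 129S6/SvEv against BL6, 1550 to 3805 and 2 to 3 for CAST against BL6, 7439 to 9120 and 5 to 5 for CAS129 against BL6, 6104 to 9119 and 6 to 7 for CAS129 against 129S6/SvEv, and 3302 to 5592 and 5 to 6 for 129CAS against CAS129.

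Signs turned in some of these fits, with these ranges. Bmp4 ran from -0.09 to 1.97 in the pooled comparison and from -1.76 to 0.39 in BL6. For CAS129 minus BL6, Bmpr1a ran from -0.84 to 0.21 and Bmpr2 from -1.19 to 0.20. For CAST minus BL6, Bmpr1b ran from -3.93 to 0.67, Bmpr2 from -1.36 to 0.10, Nog from -0.67 to 7.12, Id1 from -1.06 to 0.26 and Id3 from -1.03 to 1.65, with Bmp4 (2.33) and Bmpr1b (-3.93) called without BL6 PSC replicate 1. For CAST against BL6 PSC, Bmpr1b ran from -1.04 to 0.30, Nog from -6.07 to 1.25 and Id1 from -0.92 to 0.36, with Bmp4 (-2.50) and Bmpr2 (1.76) called without BL6 PSC replicate 1. For CAS129 against BL6 PSC, Bmpr1a ran from -0.27 to 0.95, Bmpr2 from -0.17 to 1.33 and Nog from -0.32 to 2.32, and for CAS129 against CAST PSC, Bmpr1a ran from -0.89 to 0.11. In MN, Bmpr1b ran from -0.12 to 0.41 for 129S6/SvEv against BL6, and Bmpr1a from -0.09 to 0.03 and Bmpr2 from -0.06 to 0.06 for CAS129 against BL6. Bmpr1b and Nog in PSC rest on 0 to 30 counts per library, which limits every value that uses them.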
